A study of Mus musculus with 50 samples.

Results

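Tmem254a, Plac9a, Anxa11, Mat1a, Sftpa1, Mbl1 and Sftpd are 7 genes of mouse chromosome 14, out of 17748 genes named on the Agilent arrays. They were selected with their measured difference between transgenic and wild-type mice already known, so their values on both platforms are given as a description without a test. On Agilent, the genes were found as the non-control probes whose accession or description gives one of these names, where D14Ertd449e stands for Tmem254a and Plac9 for Plac9a. This gave 8 probes of 41174, 1 for each gene and 2 for Sftpa1. On ABI, 1 probe was found, for Tmem254a, and no row of the other 6 genes could be identified from the identifiers.

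Hippocampal RNA of wild-type (WT) male C57/BL6j mice was compared with that of male mice of the same background labelled as DLCK transgenic (TG), which overexpress DCLK-short, a constitutively active kinase spliced from the doublecortin-like kinase gene. Ages, the promoter of the transgene and the number of founder lines were not given in the sources used here. For Agilent, a WT and a TG mouse were hybridized together on each of 10 two-color arrays, 5 with WT in Cy3 and 5 with TG in Cy3. Each of the 5 WT and 5 TG mice lies on 2 arrays, so the arrays are not independent mice, and SD and SE over 10 arrays also hold technical spread. Arrays are named by their mice, the Cy3 mouse first (WT1/TG4). For ABI, a one-color platform, 5 WT and 5 TG mice were measured on 1 array each. By the labels, ABI included WT2 and not WT6, and Agilent included WT6 and not WT2.

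The direction on Agilent is that of the labels, which are in doubt. Exchanging the 5 arrays labelled with WT in Cy3 with the 5 labelled with TG in Cy3 turns every sign and changes no size. As labelled, the 10 pairs of arrays that share a mouse had a mean correlation of -0.12 in their deviations from the mean log ratio, against -0.09 for the 35 other pairs. After the exchange these values were 0.04 and -0.14, and 4 pairs share a mouse under both assignments. With the dye effect of each probe taken out, arrays that share a mouse had a mean correlation of 0.10 as labelled and 0.29 after the exchange. The other pairs then had -0.142 and -0.195. Without the 4 pairs common to both assignments, pairs sharing a mouse had -0.134 as labelled and 0.177 after the exchange. No p value belongs to these correlations, since the points share arrays and probes.

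The genes lie in 2 groups. Tmem254a encodes a small multi-pass membrane protein of unknown function. Plac9a encodes a short secreted protein first described in placenta. Anxa11 belongs to the annexins, which bind phospholipid membranes in the presence of calcium. Mat1a is the liver form of methionine adenosyltransferase, which makes the methyl donor S-adenosylmethionine. Sftpa1, Sftpd and Mbl1 encode collectins, soluble lectins of innate immunity. The surfactant proteins are made mainly in the lung, and mannose-binding lectin mainly in the liver.

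By the positions in the Agilent files, which name no genome build, the first group spans the Anxa11 probe (chr14:24262482-24262541, plus strand), the Plac9a probe (chr14:24264357-24264785, minus strand) and the Tmem254a probe (chr14:24300041-24300100, minus strand). The Anxa11 and Plac9a probes lie 1.8 kb apart on opposite strands, and Tmem254a lies 35.3 kb beyond Plac9a. The Plac9a probe and the Mbl1 probe span 429 and 2587 bases of genome, more than a probe covers, so both may cross an intron. The second group starts 15 Mb further on, with Mat1a, Sftpa1, Mbl1 and Sftpd between chr14:39270731 and chr14:39319179. The annotation places near-identical copies next to Tmem254a and Plac9a (Tmem254b, Tmem254c, Plac9b and Gm9780). No Agilent probe carries the name of a copy, and no probe sequence was at hand, so the signals of Tmem254a and Plac9a may hold transcripts of the copies.

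The 250 bases before the annotated start (the most upstream one for Tmem254a) are shown for the pair of genes whose probes differed and for Anxa11 beside them. They come from RefSeq on build GRCm38.p6, which is not the build of the probe positions, and read 5′ to 3′ on the strand of the gene. Capitals mark matches on either strand to the GC box GGGCGG, the CCAAT box CCAAT or the TATA box TATAAA. The windows are chr14:25927673-25927922 on the minus strand, chr14:25902894-25903143 on the minus strand and chr14:25841905-25842154 on the plus strand.
Tmem254a: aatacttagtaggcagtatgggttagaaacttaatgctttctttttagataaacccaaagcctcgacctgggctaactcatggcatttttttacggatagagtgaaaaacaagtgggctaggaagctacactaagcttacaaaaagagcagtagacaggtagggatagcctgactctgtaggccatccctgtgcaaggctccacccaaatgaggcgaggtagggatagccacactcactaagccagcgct
Plac9a: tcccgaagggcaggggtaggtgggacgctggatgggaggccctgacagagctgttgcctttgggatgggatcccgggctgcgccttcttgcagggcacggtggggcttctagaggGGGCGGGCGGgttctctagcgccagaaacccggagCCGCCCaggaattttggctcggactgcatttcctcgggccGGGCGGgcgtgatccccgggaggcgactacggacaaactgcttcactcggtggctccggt
Anxa11: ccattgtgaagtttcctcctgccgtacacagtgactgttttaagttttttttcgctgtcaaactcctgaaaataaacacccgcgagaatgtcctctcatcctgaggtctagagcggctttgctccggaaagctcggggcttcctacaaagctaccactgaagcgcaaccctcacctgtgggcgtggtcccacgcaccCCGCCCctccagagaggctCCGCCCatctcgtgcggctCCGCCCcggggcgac

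The Tmem254a window held none of these letters and had 46% GC, while the window of its second annotated start, not shown, held 1 GC box and had 65.6% GC. The Plac9a window held 4 matches to the GC box, which overlap in part, and had 66.8% GC, and the Anxa11 window held 3 matches and had 58% GC. Among 32851 annotated windows of 250 bases, 32.7% held a GC box, 33.8% a CCAAT box and 12.4% a TATA box. The Tmem254a window was identical to that of Tmem254c over all 250 bases and to that of Tmem254b over 234 aligned bases. The Plac9a window was identical to those of Plac9b and Gm9780 over 172 aligned bases. Promoter windows of Mat1a and Sftpd were not in the table used here. A match or its absence is a description of letters.

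Tmem254a had the largest log ratio of the 8 probes. Its log2 ratio of TG over WT was -1.06 on WT1/TG4, -1.03 on WT3/TG5, -1.05 on WT4/TG2, -1.06 on WT5/TG3 and -1.12 on WT6/TG1. With TG in Cy3, it was -0.77 on TG1/WT5, -1.16 on TG2/WT1, -0.98 on TG3/WT4, -0.63 on TG4/WT3 and -1.05 on TG5/WT6. All 10 arrays had the same sign, and the 2 values closest to 0 came from arrays with TG in Cy3. The mean was -0.99 ± 0.17 (SD, n = 10 arrays; SE 0.05), a 1.99-fold lower signal in TG as labelled and 1.99-fold higher after the exchange. The study describes a gene it calls Plac9 as up in TG, the opposite of the direction as labelled for both Tmem254a and Plac9a. The study's Agilent log2 ratio for that gene was 0.99, the size found here for Tmem254a and not for Plac9a. Its ABI ratio was also up, but smaller than that of the Tmem254a probe here. Which of these transcripts the name stands for there was not tested. The Tmem254a probe ranked 1 of 41174 by p value and 12 by size, which is how it came to be selected. The 5 arrays with WT in Cy3 lay within 0.04 (SD) of their mean of -1.06, and those with TG in Cy3 within 0.22 of -0.92. By mouse, the mean of the 2 arrays of a WT mouse ran from -1.11 (WT1) to -0.83 (WT3), and that of a TG mouse from -1.11 (TG2) to -0.85 (TG4).

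**Figure D1:**
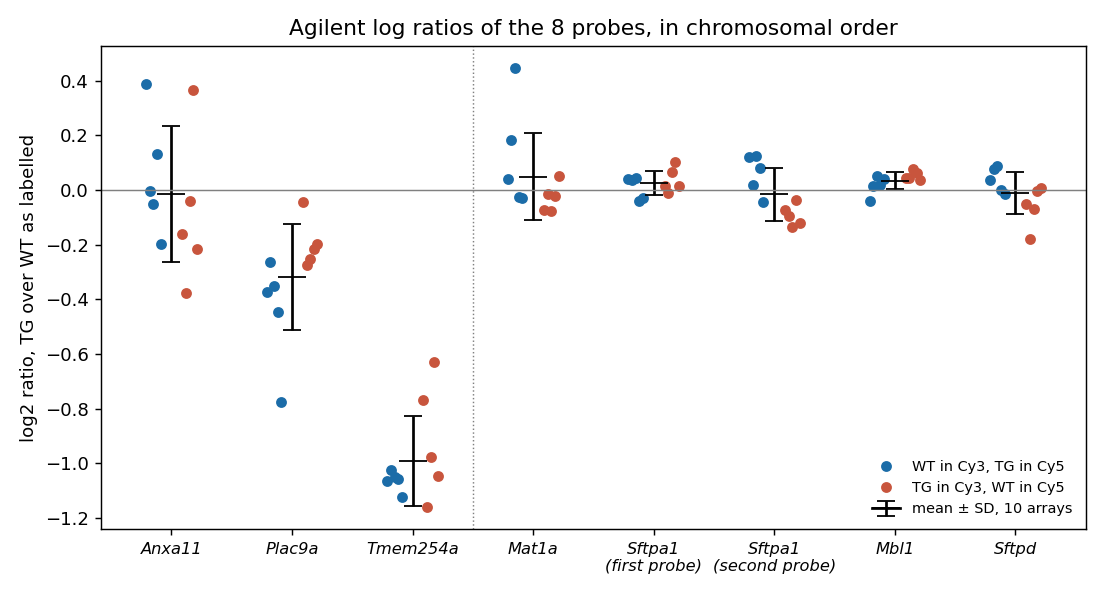
Log2 ratio of TG over WT as labelled for each of the 8 probes in chromosomal order, 1 point per array, colored by dye orientation, with the mean and SD over 10 arrays and a dotted line between both groups of genes. Tmem254a lies near -0.99 and Plac9a near -0.32, while the means of the other 6 probes lie between -0.02 and 0.05.

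The signals behind these ratios were well above the background. In Cy3, the Tmem254a probe read 659, 444, 446, 389 and 518 in WT1, WT3, WT4, WT5 and WT6. It read 229, 298, 227, 259 and 227 in TG1 to TG5, so that the WT and TG mice did not overlap in this dye. In Cy5, WT mice lay between 290 and 463 and TG mice between 157 and 450. They overlapped through the TG1 channel of the WT6/TG1 array, whose Cy5 channel was bright throughout (median of all probes 163, against 77.6 to 104 on the other arrays). Before any normalization, the TG signal was the lower one on all 10 arrays. Negative control spots had a 95th percentile of 61.8 to 80.2 in Cy3 and of 40 to 45.7 in Cy5, and no spot of the 8 probes was saturated.

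Plac9a, 35.3 kb away, had a smaller ratio of the same sign. Its log2 ratio was -0.37 (WT1/TG4), -0.26 (WT3/TG5), -0.35 (WT4/TG2), -0.44 (WT5/TG3) and -0.78 (WT6/TG1) with WT in Cy3. With TG in Cy3 it was -0.04 (TG1/WT5), -0.27 (TG2/WT1), -0.25 (TG3/WT4), -0.21 (TG4/WT3) and -0.20 (TG5/WT6). All 10 values were below 0, and the WT6/TG1 array stood lowest. The mean was -0.32 ± 0.19 (SD, n = 10 arrays; SE 0.06), a factor of 1.25. The mean was -0.44 ± 0.20 (SD, n = 5) with WT in Cy3 and -0.20 ± 0.09 (SD, n = 5) with TG in Cy3. The means of the dye orientations lay further apart than those of Tmem254a, and the single arrays overlapped at TG2/WT1 and WT3/TG5. The Plac9a signals, between 155 and 273 in Cy3 and between 99.7 and 190 in Cy5, overlapped between WT and TG in both dyes. Before normalization, the TG signal was the higher one on 3 of 5 arrays with TG in Cy3 and on none of 5 with WT in Cy3, so the sign on these 3 arrays comes from the removal of the dye difference.

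**Figure D2:**
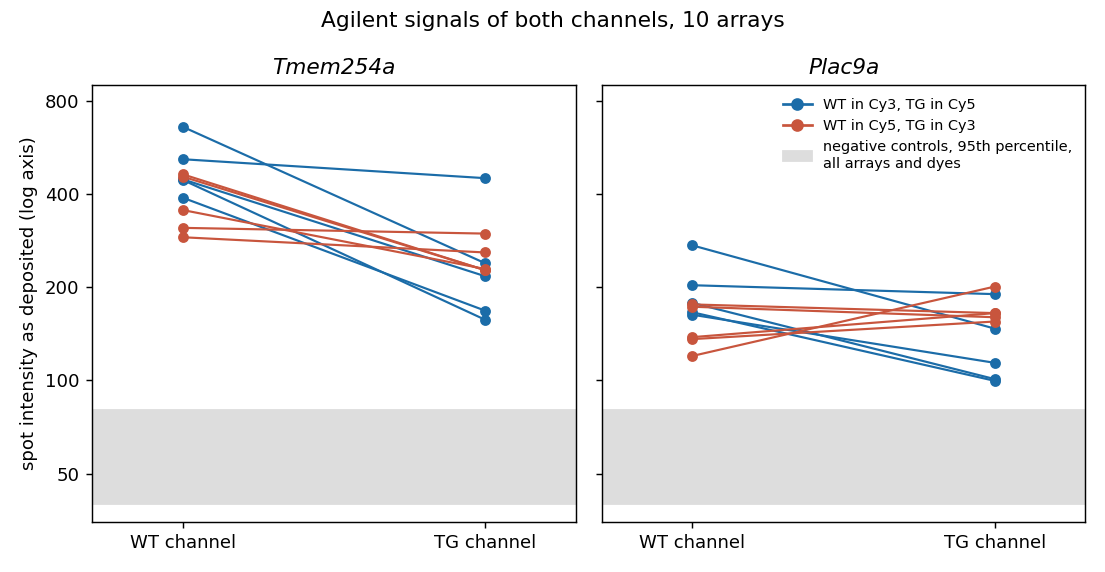
Spot intensities as deposited (log axis) in the WT and TG channel of each of 10 Agilent arrays for Tmem254a and Plac9a, 1 line per array, colored by dye orientation. The grey band spans the 95th percentiles of the negative controls (40 to 45.7 in Cy5 and 61.8 to 80.2 in Cy3). All 10 lines fall for Tmem254a, and 3 rise for Plac9a.

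Anxa11, on the other side of Plac9a, had a mean log2 ratio of -0.02 ± 0.25 (SD, n = 10 arrays; SE 0.07). Its values ran from -0.38 (TG2/WT1) to 0.39 (WT1/TG4) with 7 below 0. The 2 highest values, 0.39 and 0.37, came from WT1/TG4 and TG4/WT3, both labelled with TG4. The spread over arrays was larger than that of Tmem254a (SD 0.17), although the mean was near 0. The Anxa11 signals lay between 98.1 and 200 in Cy3 and between 85.7 and 181 in Cy5, above the negative controls on all 10 arrays.

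The liver and lung genes of the second group had ratios near 0 and signals near the background. Mat1a averaged 0.05 ± 0.16 (SD, n = 10 arrays), with its highest value of 0.45 on WT4/TG2, where its signals were 48.9 in Cy3 and 45.9 in Cy5 and the Cy3 signal lay below the negative controls of that array (70.5). The first Sftpa1 probe (chr14:39281098-39281157) averaged 0.02 ± 0.04, and the second (chr14:39282544-39282603) -0.02 ± 0.10, each over 10 arrays. The second probe was above the negative controls on 4 arrays, and its sign followed the dye, with a mean of 0.06 with WT in Cy3 and -0.09 with TG in Cy3. Mbl1 averaged 0.04 ± 0.03 (SD, n = 10 arrays) and was flagged well above the background in 8 of 20 channels. Sftpd averaged -0.01 ± 0.08 and was flagged in 19 of 20 channels, with signals of 64 to 104 in Cy3 and 46 to 73.3 in Cy5. Signals this close to the negative controls limit the difference that these probes could show.

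Of the 8 probes, those of Tmem254a and Plac9a passed an FDR of 0.1 with limma, where 3053 of 41174 probes passed (7.41%). The 2 probes were in the direction of lower signal in TG as labelled, like 1548 of all probes (3.76%). Nothing is read from these counts, since the genes were chosen on this contrast. The median log2 ratio of the 8 probes was -0.0134, against 0.0023 over all probes, and the median size was 0.0295, against 0.0369. A single sign on all 10 arrays was seen for 2 of 8 probes and for 2.11% of all probes. Of all calls, 50.7% were lower in TG with loess normalization and 7.72% with median centring of the log ratios, while both probes kept their sign and passed under either.

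Probes around the genes were then compared by position, from 1 Mb before the Anxa11 probe to 1 Mb after the Sftpd probe. The window held 264 probes, of which 14 were lower and 5 higher in TG as labelled at an FDR of 0.1 (7.2%, against 7.41% of all probes). Within 300 kb of the Tmem254a probe lay 20 probes, and 3 of them passed (15%, against 7.41% of all probes): Plac9a, Tmem254a and Duxbl1. Plac9a and Tmem254a were chosen on this contrast, so nothing is read from this share. An unnamed probe on the minus strand (chr14:24265474-24265533), 0.69 kb from the Plac9a probe, had a log2 ratio of -0.03 ± 0.08 (SD, n = 10 arrays; range -0.15 to 0.11). Probes less than 1 kb apart thus had mean ratios of -0.32 and -0.03. Beyond Tmem254a, Cphx1, a homeobox gene 31.5 kb away, had a log2 ratio of -0.06 ± 0.12 (SD, n = 10 arrays). The Cphx1 probe was above the negative controls on 5 of 10 arrays, which limits what its ratio can show.

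Duxbl1, a double homeobox gene 65 kb from the Tmem254a probe (chr14:24365072-24365131, plus strand), had a log2 ratio of -0.24 ± 0.12 (SD, n = 10 arrays; range -0.49 to -0.10), with all 10 arrays below 0. Its signals, 51.9 to 90 in Cy3 and 41.2 to 57.9 in Cy5, were above the negative controls on 6 of 10 arrays, which limits what its ratio can show. The nearest other probe that passed was a probe of Appl1, 757.7 kb away, with -0.14 ± 0.13. A second Appl1 probe, 761.8 kb away, had -0.061 ± 0.195 and did not pass. The 5 probes from Mat1a to Sftpd, which are those of the second group of genes, did not pass. In the 208 probes between both groups, over 1 Mb from Tmem254a, 10 passed in the direction of lower and 5 in that of higher signal. This share of 7.21% was near the 7.41% of all probes, so nothing is read from it. The largest by size were an unnamed probe (0.54 ± 0.48), Wapl, which releases cohesin from chromatin (0.41 ± 0.29), a pair of other unnamed probes (-0.41 ± 0.28 and -0.35 ± 0.38) and Ncoa4, the receptor for ferritin autophagy (-0.34 ± 0.31), each SD over 10 arrays. All were smaller in size than the ratio of Tmem254a.

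**Figure D3:**
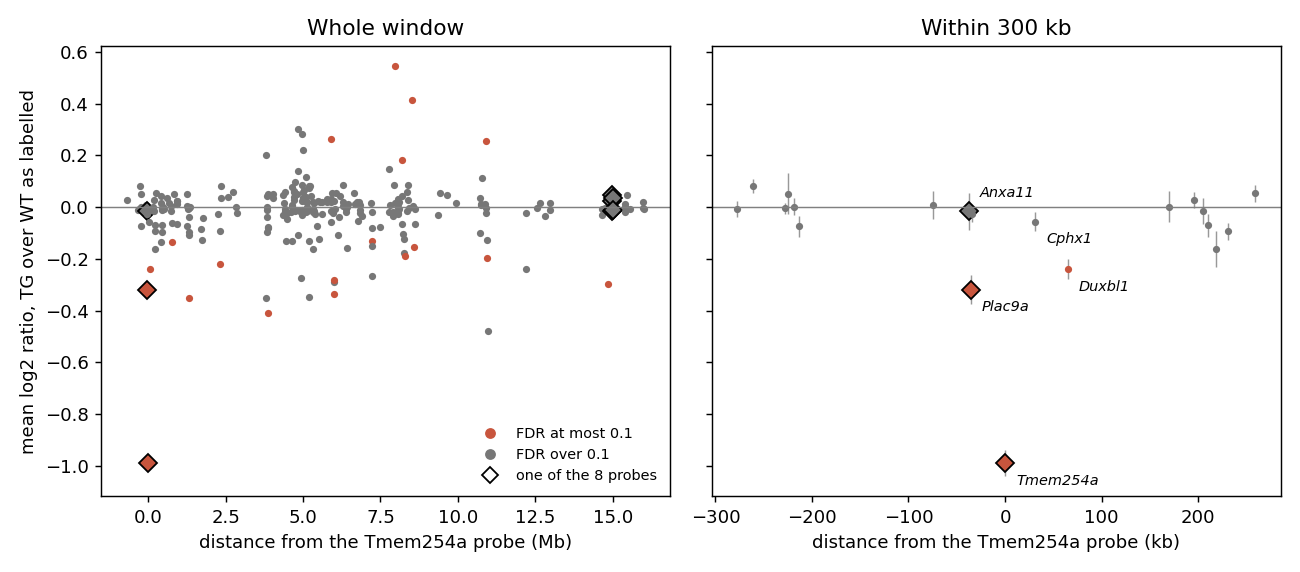
Mean log2 ratio of TG over WT as labelled against the distance from the Tmem254a probe, for the 264 probes of the window (left, Mb) and for the 20 probes within 300 kb (right, kb, bars are SE over 10 arrays). Diamonds are the 8 probes described here and red marks an FDR of at most 0.1. Tmem254a, Plac9a and Duxbl1 lie below 0 among neighbors near 0.

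On ABI, the single probe of Tmem254a had the opposite sign to the Agilent labels. Its raw signal was 8700, 7000, 10675, 7929 and 10215 in WT1 to WT5, and 24258, 24548, 29610, 24531 and 30367 in TG1 to TG5. The groups did not overlap, and the lowest TG mouse was 2.27 times the highest WT mouse. The mean was 8904 ± 1539 (SD, n = 5) in WT and 26663 ± 3050 (SD, n = 5) in TG, a ratio of 2.99. Median raw signals over all probes ran from 1199 to 2169 per array, so the probe was far above the middle of the array in all 10 mice. After vsn, a variance-stabilizing normalization on a log2-like scale, the signal was 13.10 ± 0.21 in WT and 14.82 ± 0.25 in TG (SD, n = 5 each). The difference was 1.73 (SE 0.16), a factor of 3.31. The probe ranked 1 of 33012 by p value and 6 by size, and was among the 3 probes that passed an FDR of 0.1 (0.00909%), on the contrast for which it was chosen. The ABI labels and the Agilent labels thus give opposite directions for Tmem254a, and the exchange of the Agilent arrays gives the same direction. The platforms were normalized separately, so their sizes (1.73 and 0.99) were not compared by a test. The authors note 2 hybridization days on ABI, but the mice of each were not given in the sources used here, and the day could not be fitted.

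**Figure D4:**
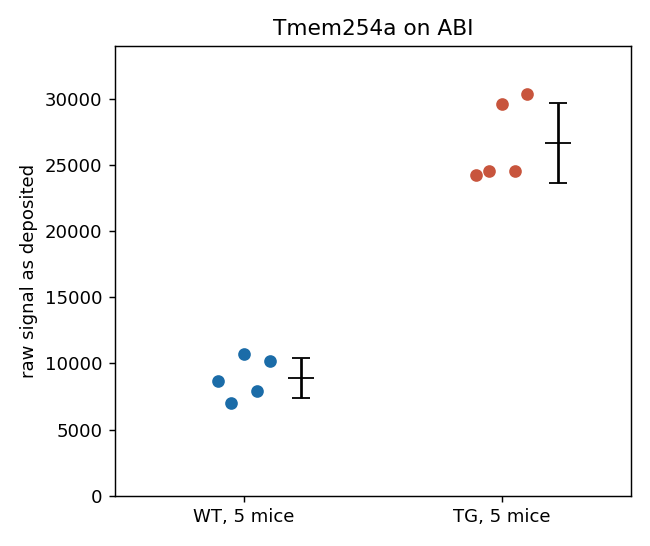
Raw ABI signal of the Tmem254a probe, 1 point per mouse, with the mean and SD of 5 mice beside each group. The WT mice lie between 7000 and 10675 and the TG mice between 24258 and 30367.

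The relatives of these genes were described with limma's FDR over all probes. Of 12 annexins, all were measured, with 15 probes, of which 2 were lower in TG as labelled, none was higher and 13 did not pass (13.3% called, against 7.41% of all probes). Anxa5, the annexin that binds exposed phosphatidylserine, had a log2 ratio of -0.12 (SE 0.03, FDR 0.0397) with 10 of 10 arrays below 0. Anxa3 had -0.22 (SE 0.07, FDR 0.0996) with 8 of 10 arrays below 0. The third by size, Anxa8, had 0.09 and did not pass (FDR 0.398). With median centring, neither passed (FDR 0.901 for Anxa5 and 0.632 for Anxa3).

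Of 13 genes of methionine and S-adenosylmethionine metabolism, 12 were measured, with 15 probes, and none passed (1 to 3 did under some of the other fits). The largest ratios were those of Mat2b, the regulatory subunit of the methionine adenosyltransferase outside the liver (-0.50 ± 0.87, SD), Amd1, which decarboxylates S-adenosylmethionine (-0.34 ± 0.38), and Nnmt, which methylates nicotinamide (0.11 ± 0.12), over 10 arrays. A second Mat2b probe had 0.008 ± 0.255. Of 11 collectin and surfactant genes, 10 were measured, with 15 probes, and none passed. The largest ratios were those of Colec12, a scavenger receptor (-0.13 ± 0.23), Sftpc, a hydrophobic surfactant protein (0.09 ± 0.13), and Mbl2 (0.07 ± 0.20), over 10 arrays. A second Colec12 probe had -0.058 ± 0.141. Each of these spreads over arrays was larger than the mean.

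The tissue was checked by its markers. Snap25, a synaptic protein, had a median signal of 12600 on its brightest probe, and Mbp, a myelin protein, 8680 on its brightest. Other neuronal and glial probes were far dimmer, with 120 and 139 for Prox1, 132 for Gfap, 301 for Grin1 and 92.6 for a Camk2a probe. Signals of that size overlap those of the lung and liver markers. Ttr, listed for both liver and choroid plexus, had 244. The lung markers Sftpb, Sftpc and Scgb1a1 had 75.9, 95 and 212, and the liver markers Alb and Apoa1 85.9 and 70.4, where the Mat1a, Sftpa1, Mbl1 and Sftpd probes had 57 to 92.9. None of the 9 neuronal, 5 choroid plexus, 3 lung or 3 liver marker probes passed the FDR in either direction. Of 9 glial probes, 2 passed as higher and 2 as lower in TG as labelled. The higher ones were of Aqp4, the astrocyte water channel (0.42 and 0.31), and Mbp was lower on 1 probe (-0.22). Of 10 meningeal and fibroblast probes, 1 (Igf2, 0.31) was higher. Over all probes, 7.41% passed in either direction, and nothing is read from counts of so few probes. The part of other cells in the Tmem254a and Plac9a ratios was not tested, and fewer cells of a type and less RNA per cell cannot be told apart in such samples.

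The probes most like Tmem254a over the 20 Agilent channels were found by Pearson's r, after the means of array and dye were taken out, among 21610 probes with a gene name that exceeded the negative controls on all arrays. This measure is the same under the labels and after the exchange, and it includes the contrast on which Tmem254a was chosen. The highest were Ap3b1, a subunit of an adaptor complex for sorting to lysosome-related organelles (r = 0.98), Uri1, a prefoldin-like protein (0.97), and Itga8, an integrin chain (0.97). Their log2 ratios were -0.21 ± 0.11, -0.29 ± 0.13 and -0.21 ± 0.10 (SD, n = 10 arrays), with all arrays below 0. The most opposed were Ly6g6e (r = -0.98), Ccdc28b (-0.96) and Dynlt1b, a dynein light chain (-0.96). These had ratios of 0.32 ± 0.10, 0.26 ± 0.10 and 0.57 ± 0.13, with all arrays above 0. All 6 lie on other chromosomes than 14. With median centring, r fell to 0.62 for Ap3b1, 0.82 for Uri1 and 0.79 for Itga8. For the opposed genes it was then -0.99 for Ly6g6e, -0.85 for Ccdc28b and -0.95 for Dynlt1b. Among the genes of the neighbourhood, r with Tmem254a was 0.93 for Plac9a, 0.94 for Duxbl1 and 0.16 for Anxa11. In the second group it was -0.79 for Mbl1, -0.34 for Mat1a, -0.45 and 0.34 for the Sftpa1 probes and 0.27 for Sftpd. The measure keeps the mean difference of TG and WT, so a steady sign gives a large r even where the ratio is small. Mbl1, with a log2 ratio of 0.035, is such a case, and no shared regulation is read from r.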

How the data were processed

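Hippocampal RNA was measured on 10 Agilent two-color arrays and 10 ABI arrays. Arrays of LGTC and AFF were not analysed here. The 80 per-sample columns of Illumina were not used, since their names could not be paired with mice. Per the file headers, the Agilent files hold mean and median spot intensities of Cy3 and Cy5, without normalization, and the log10 ratio as corrected and dye-normalized by Agilent Feature Extraction 8.5.1.1. For ABI, the authors deposited raw intensities without normalization. The submitters' processing notes name limma for Agilent.

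Computations used limma 3.58.1, statmod 1.5.0 and the package data.table (version 1.17.8) in R 4.3.3. Log ratios of the mean Agilent intensities, without background correction, were normalized with loess, turned to TG over WT by the dye of the labels, and averaged over the spots of a probe. ABI signals were normalized with vsn, programmed here (trimming quantile 0.9). Linear models with an intercept (Agilent) or the genotype (ABI) were fitted with limma over all probes, and adjusted by the Benjamini and Hochberg method, with an FDR of 0.1. No probe was filtered out. Of the listed cell type markers, 1 is not reported here. The scripts were tested on simulated data with 500 of 5000 probes changed. Of these, 98.6% (Agilent, log2 change 0.5) and 100% (ABI, log2 change 1) were recovered. False calls made up 9.38% (Agilent) and 9.26% (ABI) of the calls. Simulated arrays were drawn independently, without shared mice, and the ABI spread was set rather than taken from the data. These shares are therefore not the power on the real arrays. The number of arrays limits the precision. For arrays no counting depth exists.

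Genes were named by accession through the RefSeq table (GRCm38.p6) or by the description in the files, and 16728 probes had no name. RefSeq also gave the promoter windows and the copies, while the order and distances of the probes came from the positions in the Agilent files. The genes, the lists and the alternatives were chosen with earlier results of these data known. Named are the probes of the 7 genes, the 3 largest ratios of each family list, the probes that passed near the genes (up to 10 by size), and the 3 most and 3 least correlated named genes. Cphx1 and the unnamed probe beside Plac9a were chosen after their values were seen. The correlation of deviations between ABI mice of the same number ran from -0.24 to 0.37, and mouse numbers there pair no mice. Alternatives were normexp background correction (offset 50), median centring, the scanner software's ratio, median pixel intensities, present probes alone (both channels above the 95th percentile of 314 negative controls on all arrays), dye as a covariate, mice as random blocks, an FDR of 0.05, the exchange of the Agilent labels, other ABI normalizations and leaving out each array or mouse.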

Additional observations from a re-analysis of the deposited data

Results flagged for a closer look

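On ABI, the vsn signal of Tmem254a in mouse TG5 (15.25) stood apart from the other 4 TG mice, which lay between 14.66 and 14.81. Its gap to the nearest mouse was 0.74 of the range of the group, above the limit of 0.71 for 5 values. Its raw signal (30367) was close to that of TG3 (29610), and the median raw signal of its array (1199) was the lowest of the 10 arrays. Without this mouse the difference between TG and WT was 1.62. This was 1 of 18 groups of 5 values looked at, and chance flags about 1 in 20 groups.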

How the results depend on the processing

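Tmem254a and Plac9a passed the FDR of 0.1 under all 21 other Agilent fits, with a negative sign in every fit that kept the labels. The exchange of the Agilent labels turned them to 0.99 and 0.32. The ratio of Tmem254a was -1.19 with the scanner software's ratio and that of Mbl1 was 0.24. With median centring, Mbl1 was at -0.052 and Sftpa1 at -0.088, and with the exchange Mbl1 was at -0.035. Of the 106 alternative values of the 7 genes, the other 99 moved by less than 1 SD over arrays. Leaving out 1 array gave -1.03 to -0.97 for Tmem254a and -0.35 to -0.27 for Plac9a, the last without WT6/TG1.

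The number of Agilent probes called (3053) was 1335 with median centring, 1203 at an FDR of 0.05, 5969 with the WT mouse as a replicate block, and 5068 with the TG mouse as a block after the exchange, which was added after seeing the data. The correlation within a mouse was negative in these fits (-0.25 for WT and -0.14 for TG mice as labelled, -0.05 and -0.19 after the exchange). The count ran from 1117 to 3404 when 1 array was left out, with 1219 without WT3/TG5, 1207 without WT4/TG2, 1117 without TG1/WT5, 1851 without TG3/WT4 and 1670 without TG4/WT3. In the window around the genes, the count (19) was 7, 6, 33 and 30 under the same 4 settings, and 6 to 24 when 1 array was left out. The causes were not tested. Anxa3 passed under 9 and Anxa5 under 20 of the 21 other fits. Of the methionine list, where 0 probes passed, 1 passed with the scanner software's ratio, present probes or dye as a covariate, 3 with the WT mouse and 2 with the TG mouse as a block. Of the collectin list, 1 passed with dye as a covariate.

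On ABI, 3 probes passed, 1 with quantile normalization, 1 with the mouse number as a replicate block, and 0 with median centring, so that Tmem254a lost its call there. With limma, 1748 probes had an unadjusted p under 0.05 with median centring, against 1376 with vsn. Leaving out 1 mouse gave 1 to 3 probes, with 1 without WT1, WT3, WT5 or TG2. The difference of Tmem254a stayed between 1.62 and 1.84. All Agilent arrays carry 1 scan date and a slide each, so the planned block by scan date was not run. Signals near the background, as for the second Sftpa1 probe and Mbl1, limit the change that can be seen.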
